A study of Rattus norvegicus with 24 samples.

Results

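Chemokines and their receptors were read from the 59 targets of the panel whose symbols name them: the Ccl and Cxcl ligands, the Ccr and Cxcr receptors, the Ackr atypical receptors, and Xcl1, Xcr1, Cx3cl1 and Cx3cr1. They were chosen by name alone, out of 19962 gene targets, and comprise 37 ligands, 18 receptors and 4 atypical receptors. A target counted as above background when it exceeded, in 4 or more areas, the 99th percentile of the 1116 Olfr, Vmn1r and Vmn2r targets of the same area, receptor genes of the nose and vomeronasal organ. By that rule 12 of the 59 (20.3%) were above background, against 5554 of all 19962 targets (27.8%). Those reported here are the ligands Cxcl12, Ccl6, Ccl5, Ccl4, Ccl11, Cxcl3 and Cxcl14 and the receptors Ccr7, Cxcr4, Cxcr6 and Ccr9.

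Chemokines are small secreted proteins that steer moving cells along gradients, and their receptors are G protein-coupled receptors of the target cell. In a healing wound, platelets, keratinocytes, macrophages, fibroblasts and endothelium release them, and neutrophils, then monocytes and lymphocytes, follow. Atypical receptors bind chemokines without the usual G protein signal and take them up. In diabetic wounds the inflammatory phase is prolonged and recruitment through Cxcl12 and Cxcr4, the axis that retains and homes progenitor cells, is often described as impaired.

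The material was skin of male Sprague-Dawley (SD) rats in which diabetes was induced by streptozotocin (STZ) at 5 weeks of age. All groups carried full-thickness defects of 8 mm, held open against contraction, and all wounds were taken at day 7. The groups were Sham; Gel, a hydrogel; and CuNZ@Gel, a hydrogel that by the series title carries a nanozyme, an inorganic particle with enzyme-like activity, whose composition the labels do not give. The labels do not say what Sham wounds received. Each treatment had 2 numbered specimens, 2 regions per specimen and 2 segments per region, which gave 8 areas per treatment and 24 in all. An area is the part of a region from which GeoMx released and counted probe tags after in situ hybridisation. The labels name neither the fluorescent markers that set Segment 1 and Segment 2 apart nor the cells they hold, and do not say that a specimen is an animal. The p-values therefore measure the spread between these specimens, which may be technical.

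Recovered totals ran from 86385 to 1476499 counts per area, and in 11 of 12 regions Segment 2 held fewer (medians 533134 in Segment 1 and 170040 in Segment 2). The background lay between 11.4 and 21.6 units of scaled signal, with a median of 14.3, and between 5 and 10 members exceeded it in a given area. No target was listed at 0, since 1 count is the lowest value, and in the shallowest area 36 of the 59 members stood at 1 count. Of the marker lists, 8 of 15 macrophage markers, 8 of 10 fibroblast markers, 5 of 10 T cell markers and 3 of 8 dendritic cell markers were above background, as were 1 of 8 endothelial markers and 1 of 12 neutrophil markers. No B cell, mast cell or keratinocyte marker was. The tissue carries no single defining cell type, and its dermal markers were present while those of keratinocytes were not above background.

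Cxcl12 and Ccl6, the pair above background in all 24 areas, have unlike promoters. Both are shown because the results turn most on the first and because the second is the clearest contrast to it. Sequences are RefSeq's on the rat assembly GRCr8, 250 bases before to 50 after the gene start, read 5′ to 3′ on the gene's strand. Capitals mark the words searched, on either strand. GGGCGG is the core of many GC boxes. The other word, the usual form of the TATA box, was searched as TATAAA. Cxcl12 lies at chr4:152060531-152060830 on the plus strand and Ccl6 at chr10:68883317-68883616 on the minus strand.
Cxcl12: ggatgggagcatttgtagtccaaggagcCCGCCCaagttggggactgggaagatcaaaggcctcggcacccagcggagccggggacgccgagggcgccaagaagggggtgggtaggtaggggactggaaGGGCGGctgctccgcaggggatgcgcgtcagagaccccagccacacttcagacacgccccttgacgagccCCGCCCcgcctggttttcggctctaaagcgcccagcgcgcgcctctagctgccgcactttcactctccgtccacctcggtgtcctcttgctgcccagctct
Ccl6: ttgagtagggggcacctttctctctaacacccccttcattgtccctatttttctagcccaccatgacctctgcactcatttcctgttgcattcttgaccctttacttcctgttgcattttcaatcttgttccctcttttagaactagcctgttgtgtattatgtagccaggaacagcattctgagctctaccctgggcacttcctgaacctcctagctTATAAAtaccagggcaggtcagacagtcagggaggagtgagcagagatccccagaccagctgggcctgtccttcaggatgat

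The Cxcl12 window holds GGGCGG 3 times, has no TATAAA and contains 23 CG dinucleotides, more than 80.5% of the 33469 promoters of that length have. The Ccl6 window has 1 TATAAA, no GGGCGG and 0 CG dinucleotides, against a median of 7. GGGCGG occurs in 33.1% of all promoters of the table and TATAAA in 14.2%. Of the 12 members above background 5 were matched in the table. Cxcl14 and Cxcr4 hold 26 and 20 CG dinucleotides and GGGCGG 3 times each, and Cxcr6 holds 3 and none. Cxcr4 also holds TATAAA 2 times, and Cxcl14 and Cxcr6 lack it. These matches describe letters and not sites in use.

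**Figure D1:**
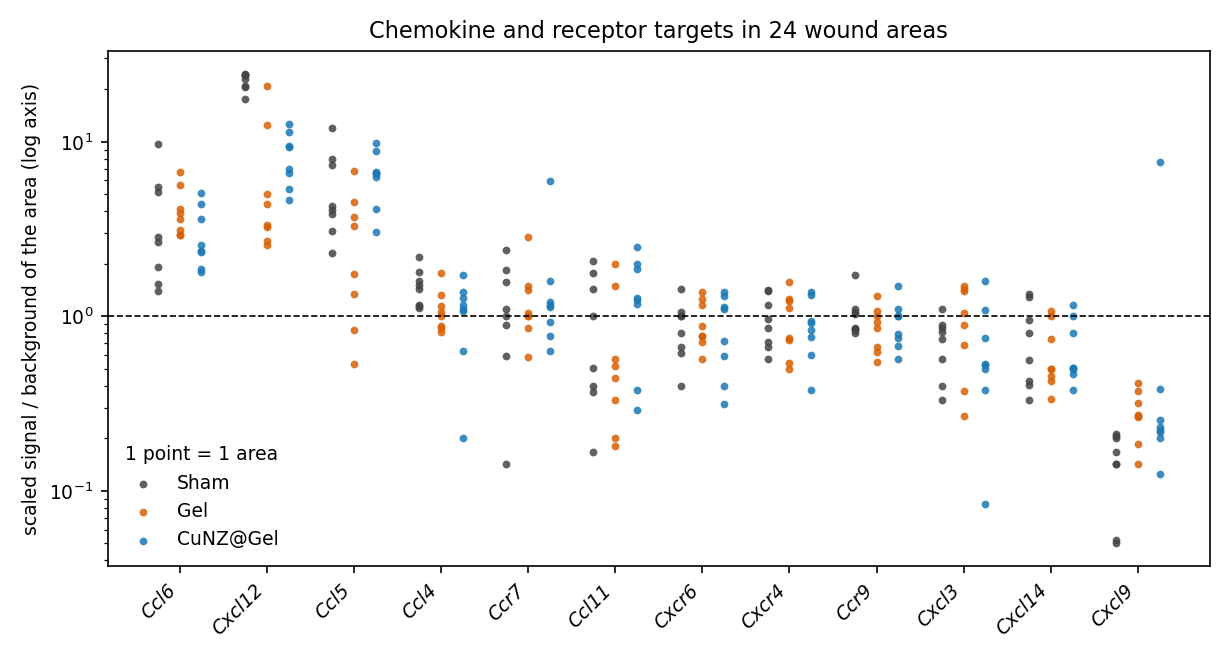
Scaled signal of 11 members above background and of Cxcl9, divided by the background of the area (log axis), with 1 point per area and colour for treatment. The dashed line is the background. Cxcl12 and Ccl6 lie above it in all 24 areas, Ccl5 in 22, and the single high Cxcl9 point is a CuNZ@Gel area.

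The ligands are taken first, beginning with Cxcl12, which fibroblasts, pericytes and endothelium make and which calls cells that carry Cxcr4. It was lower in both hydrogel groups than in Sham. Scaled signal in the Sham areas was 285 and 371 (Segments 1 and 2) in region 1 of specimen 1, 349 and 353 in region 2, 219 and 327 in region 1 of specimen 2, and 285 and 294 in region 2. The Gel areas, in the same order, read 70.8 and 54.5, 48.4 and 38.5, 50.3 and 36.8, and then 279.6 and 204. The CuNZ@Gel areas read 139 and 101, 161 and 133, 123 and 101, and 73.6 and 113. All 8 CuNZ@Gel areas thus lay below the lowest Sham area, whereas in Gel 6 areas did so by a wide margin, 1 did narrowly, and 1 area of specimen 2 region 2 fell within the Sham range.

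Specimen means were 339.6 and 281 in Sham, 53.0 and 143 in Gel, and 134 and 103 in CuNZ@Gel, so the group means were 311 ± 41.1, 97.9 ± 63.5 and 118 ± 22.0 (SD, n = 2 each). The Sham specimens did not overlap with those of either hydrogel, and the 2 hydrogels overlapped. Relative to Sham, Cxcl12 fell by 2.06 on the log2(signal + 1) scale in Gel (SE 0.22, limma adjusted p = 1.99e-07) and by 1.40 in CuNZ@Gel (SE 0.22, limma adjusted p = 3.66e-04). The limma fit pools spread across targets, so for Cxcl12 it took an SD of 0.224 where the 6 specimens themselves gave 0.438, and the p-values may be too small.

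Cxcl12 was the only 1 of the 12 members above background called in either comparison, so 1 of 12 was called in each. All targets above background were called at 7.85% in Gel against Sham and 4.34% in CuNZ@Gel against Sham. The member count is therefore near the background share, and nothing particular to chemokines is read from it. Among all 57 members tested, 1 was called in Gel against Sham and 2 in CuNZ@Gel against Sham, where 2.42% and 1.31% of all 19728 targets were. The medians over the 12 were -0.17 and -0.05, against -0.15 and -0.15 for all targets above background. Both hydrogel comparisons share the Sham specimens, so their agreement is not independent.

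Between the hydrogels, Cxcl12 in CuNZ@Gel stood 0.66 above Gel (SE 0.22, limma adjusted p = 0.320). The value depended on region 2 of Gel specimen 2. Without that region the difference was 1.27 (adjusted p = 2.01e-04), and without Gel specimen 2 it was 1.14 (adjusted p = 5.80e-07), with the lone Gel specimen assumed to vary like the others. Over the other alternatives for this pair the call was not made.

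**Figure D2:**
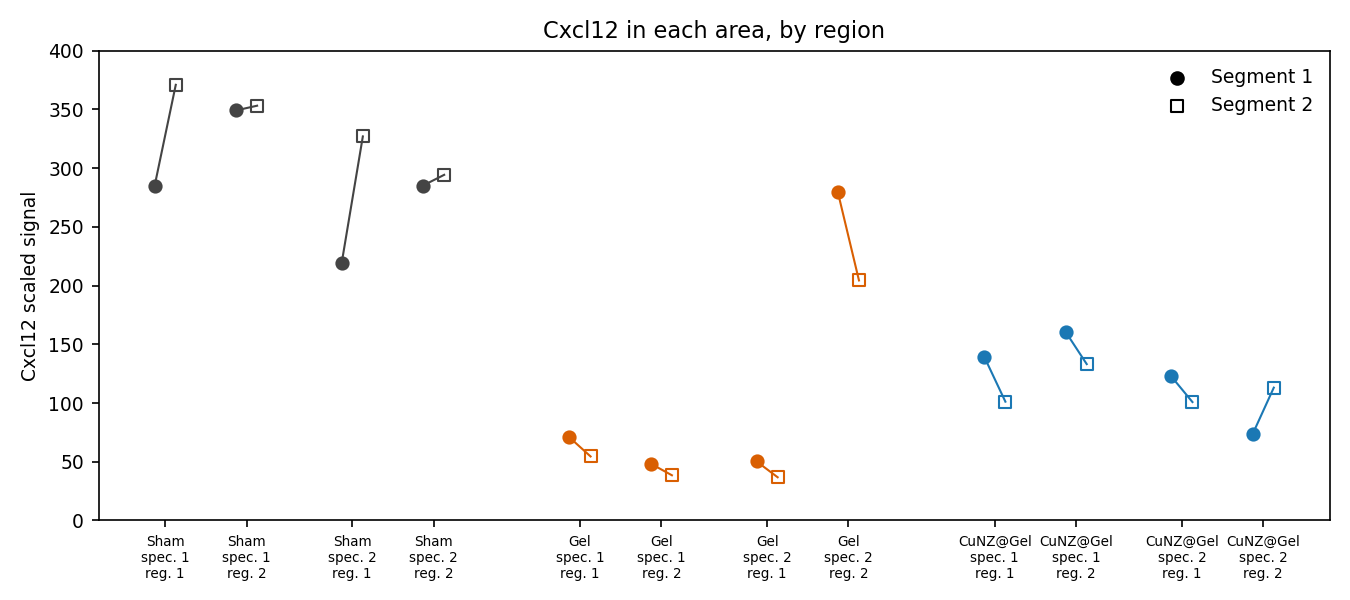
Cxcl12 scaled signal in each of the 24 areas, by treatment, specimen and region. Filled circles are Segment 1, open squares Segment 2, and a line joins the segments of a region. Sham areas lie between 219 and 371, CuNZ@Gel areas between 73.6 and 161, and 6 Gel areas between 36.8 and 70.8, with Gel specimen 2 region 2 at 279.6 and 204.

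The direction of both Sham comparisons held under all 26 alternatives, but the call did not. It was lost under quantile normalization, median scaling, averaging of linear values, DESeq2 and Segment 1 areas alone, with adjusted p up to 0.382 in Gel against Sham and up to 0.884 in CuNZ@Gel against Sham. The CuNZ@Gel call was also lost without the shallowest area, a Segment 2 area of CuNZ@Gel specimen 1 (-1.34, adjusted p = 0.0878).

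Of 10 fibroblast markers, 2 fell in Gel and in CuNZ@Gel against Sham, in both cases Lum and Fap. At an unadjusted p under 0.05 there were 6 and 2, and the median difference over the 10 was -1.27 in Gel and -0.42 in CuNZ@Gel. Of all targets above background, 7.85% and 4.34% were called, and 25.4% and 21.4% had such an unadjusted p. The markers did not all fall. Postn ran over its regions from 108 to 274 in Sham, 28.1 to 109 in Gel and 163 to 235 in CuNZ@Gel. Dcn, which was not above background, ran from 5.35 to 10.5 in Sham and from 8.38 to 14.7 in Gel. Lum, which encodes the collagen-binding proteoglycan lumican, fell by 1.13 in Gel (limma adjusted p = 7.16e-07) and by 0.80 in CuNZ@Gel (adjusted p = 0.00290). Fap, a protease of activated fibroblasts, fell by 1.32 (adjusted p = 1.90e-07) and by 1.02 (adjusted p = 3.39e-04). The summed signal of the 10 markers ran from 10829 to 32695 in Sham areas, from 1969 to 11543 in Gel areas and from 7426 to 12739 in CuNZ@Gel areas. The markers' part in the Cxcl12 difference was not tested. In tissue areas, fewer cells of a type and less RNA per cell cannot be told apart.

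Region by region, the 3 Gel regions with Cxcl12 between 43.4 and 62.6 had fibroblast sums between 3499 and 7365. Gel specimen 2 region 2, with Cxcl12 at 242, had a sum of 11249. The 4 CuNZ@Gel regions had sums of 9857 to 11692, a range that holds this Gel region, with Cxcl12 between 93.3 and 147. In Sham, sums of 12269 to 26529 went with Cxcl12 of 273 to 351. Col3a1, the gene of a type III collagen chain, made up most of every sum. Without it, Gel specimen 2 region 2 stood at 2338, close to the 2378 of region 1 of that specimen and below the 2647 to 3334 of the CuNZ@Gel regions. The Gel regions of specimen 1 then stood at 1393 and 1295, and the Sham regions at 3927 to 6238.

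**Figure D3:**
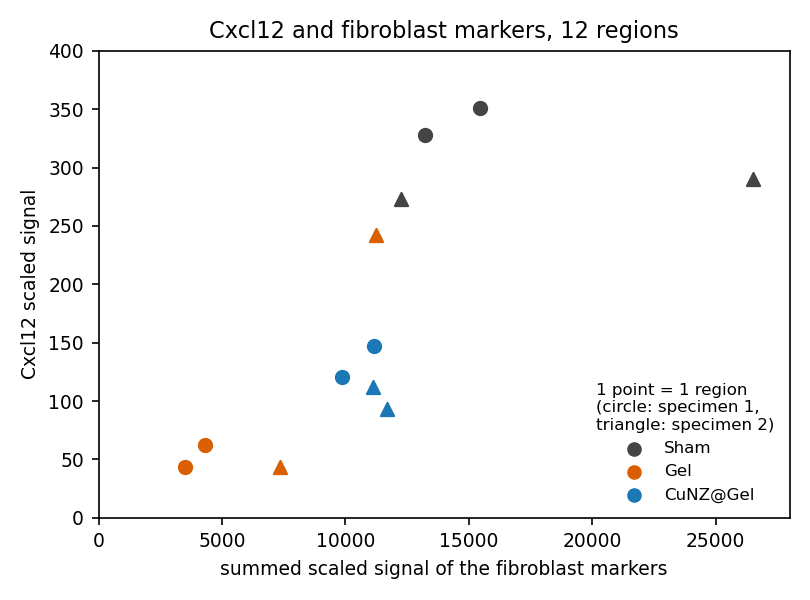
Cxcl12 scaled signal against the summed scaled signal of 10 fibroblast markers, with 1 point per region (mean of its segments), colour for treatment and shape for specimen. The CuNZ@Gel regions lie at 93.3 to 147, and Gel specimen 2 region 2 (sum 11249) at 242; most of each sum is Col3a1.

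Cxcr4, the signalling receptor of Cxcl12 on leukocytes and progenitor cells, was above background in 9 of 24 areas, and no treatment difference was called. Its median over all areas, 12.3, lay below the median background of 14.3. Values so near background do not show that the receptor was unchanged. The areas ran from 8.18 to 21.5 in Sham (median 12.1), from 7.55 to 22.5 in Gel (median 13.3) and from 8.18 to 19.3 in CuNZ@Gel (median 11.96). The ranges overlap almost wholly. Specimen means were 13.5 ± 4.68, 13.6 ± 0.10 and 12.7 ± 0.13 (SD, n = 2), and no log2 difference exceeded 0.07 in size (SE 0.25). Ackr3, the atypical receptor that takes up Cxcl12, exceeded background in no area (highest 12.3).

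Of the inflammatory CC ligands Ccl3, Ccl4, Ccl5, Ccl6 and Ccl9, 3 were above background: Ccl5, Ccl6 and Ccl4. Ccl5, which T cells and macrophages make, ran over its areas from 27.3 to 164 in Sham (median 58.9), from 7.61 to 91.4 in Gel (median 34.5) and from 38.6 to 135 in CuNZ@Gel (median 105). The areas overlap, with the lowest values in Gel specimen 1. Specimen means were 94.6 and 63.5 in Sham, 22.3 and 59.5 in Gel, and 79.7 and 112 in CuNZ@Gel.

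The log2 difference of Ccl5 was -1.13 in Gel against Sham (SE 0.65, limma adjusted p = 0.638) and 1.52 in CuNZ@Gel against Gel (SE 0.65, adjusted p = 0.850). No call was made by limma, but edgeR on recovered counts called both (-1.04, adjusted p = 0.0263, and 1.41, adjusted p = 4.28e-04), as did limma on counts thinned to 86385 per area (-1.17 and 1.52). Both were also called once region 2 of Gel specimen 2 was left out (-1.46 and 1.85) or the whole of that specimen (-1.88 and 2.27). Without Gel specimen 1, the lower of the pair, the differences shrank to -0.39 (limma adjusted p = 0.598) and 0.78 (adjusted p = 0.0270). Over all alternatives the adjusted p for Ccl5 thus lay on both sides of the threshold. Of 10 T cell markers, Cd2 and Il7r fell in Gel against Sham, Cd2 fell in CuNZ@Gel against Sham, and Cd3e fell in CuNZ@Gel against Gel. The medians over the 10 were 0.03, -0.15 and 0.02 in that order, and over the 5 above background -0.13, -0.24 and -0.05. Over all targets above background they were -0.15, -0.15 and -0.003. Of all targets above background, 7.85%, 4.34% and 3.24% were called. Summed T cell signal ran from 68.7 to 129 in Sham areas, 70.6 to 113 in Gel areas and 66.8 to 109 in CuNZ@Gel areas, and its part in the Ccl5 values was not tested.

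Ccl6, a macrophage-derived ligand of Ccr1 in rodents, was measured in all 24 areas at 20.9 to 116. Specimen means were 27.3 and 74.6 in Sham, 51.4 and 64.5 in Gel, and 32.8 and 54.0 in CuNZ@Gel. The Sham specimens span those of both hydrogels. No treatment difference was called (log2 0.39, -0.06 and -0.45, SE 0.59). Without Sham specimen 2, Ccl6 was called higher in Gel by 1.07 (adjusted p = 0.00246), on a single Sham specimen.

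Ccl4, which activated macrophages and lymphocytes release, had areas of 13.3 to 33.7 in Sham, 11.0 to 21.8 in Gel and 3.07 to 22.6 in CuNZ@Gel. It was above background in 8, 4 and 6 of 8 areas in that order, and the ranges overlap. The difference of CuNZ@Gel from Sham was -0.52 (SE 0.24, limma adjusted p = 0.397). Ccl3, its close relative, exceeded background in no area.

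Ccl11, the eosinophil attractant eotaxin, varied between specimens and between regions of a specimen. Specimen means were 5.21 and 20.4 in Sham, 4.34 and 16.4 in Gel, and 25.99 and 12.2 in CuNZ@Gel. Within a treatment the specimens differed by a median of 1.52 log2 units, regions of a specimen by 0.76 and segments of a region by 0.47. For Cxcl12 the same 3 medians were 0.38, 0.39 and 0.37. No Ccl11 difference was called (largest 0.99, SE 1.03, limma adjusted p = 0.982, CuNZ@Gel against Gel). Without Gel specimen 2 it was called lower in Gel than in Sham (-1.13, adjusted p = 0.0109) and higher in CuNZ@Gel than in Gel (1.75, adjusted p = 2.88e-06). Ccr3, its receptor, exceeded background in no area (highest 12.3).

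Cxcl3, which draws neutrophils through Cxcr2, was above background in 7 areas, of which 4 were Gel areas, 2 CuNZ@Gel and 1 Sham. Specimen means were 9.81 ± 0.02, 13.7 ± 3.17 and 9.86 ± 3.14 (SD, n = 2), and no difference was called. Cxcl1 and Cxcl2, its neighbours in the same gene cluster, and Cxcr2 exceeded background in no area. Of 12 neutrophil markers S100a9 alone was above background, and their summed signal ran from 41.3 to 81.8 over all areas. Cxcl14, a chemokine of resting epithelium and stroma, was above background in 5 areas at 4.72 to 18.4 and differed by at most 0.15 in size (SE 0.27).

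Among receptors of lymphoid and dendritic cells, Ccr7, which guides dendritic and naive T cells towards lymph nodes, was above background in 14 areas. Its areas ran from 2.04 to 36.8 in Sham, from 9.54 to 41.0 in Gel and from 9.81 to 19.6 in 7 CuNZ@Gel areas, with the eighth at 78.3. That area is Segment 1 of CuNZ@Gel specimen 2 region 1. The difference of CuNZ@Gel from Sham was 0.46 (SE 0.30, limma adjusted p = 0.646), called only without Sham specimen 1 (1.11, adjusted p = 0.0403). Summed dendritic cell signal, most of it from Fscn1, ran from 198 to 305 in Sham areas, from 231 to 439 in Gel areas and from 208 to 474 in CuNZ@Gel areas. Of 8 dendritic cell markers limma called 0 in each treatment comparison (0, 1 and 1 at an unadjusted p under 0.05), and the part of that signal in the Ccr7 values was not tested.

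Cxcr6, a receptor of tissue-resident T cells, was above background in 9 areas and Ccr9, best known for homing of T cells to the gut, in 8. Cxcr6 ran from 6.13 to 20.4 and Ccr9 from 8.18 to 24.5, and each overlapped across treatments. Their largest treatment differences were 0.18 in size (SE 0.25 each). Neither was called in any comparison.

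Cxcl12 and its receptor Cxcr4 were both above background. The ligands of Ccr7 (Ccl19 and Ccl21a), of Ccr9 (Ccl25) and of Cxcr6 (Cxcl16) exceeded background in no area, nor did the receptors Ccr3 and Cxcr2 of Ccl11 and Cxcl3. The mouse name Ccl21a matches no rat symbol or synonym, so its rat counterpart may not have been measured. In gene order on GRCr8, Ccl5, Ccl9, Ccl6, Ccl3 and Ccl4 form a run of 5 neighbours (at most 2 other protein-coding genes between any pair in a row), of which 3 were above background. In the run of Ccl2, Ccl7, Ccl11, Ccl12 and Ccl1, Ccl11 alone was. Among all targets 27.8% were above background, and among the members 20.3%. The first run holds the same ligands as the inflammatory CC ligands above, so its count is not a separate observation. Nothing particular to gene order is read from these counts.

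The other 47 members were not above background by the rule. Of these, 45 exceeded it in no area, among them Ccl2 and Ccl7, which recruit monocytes through Ccr2, Ccr2 itself, Cx3cr1, Cx3cl1, Cxcl10, Cxcl13 and all 4 atypical receptors. Their medians over 24 areas lay between 1.97 (Ccr4) and 8.30 (Ccl27a), and the highest area of any was 13.6 (Cxcl15). At this depth and with probes named for mouse genes, a low value does not show that a gene was silent. Just outside the rule were Cxcr1, at 13.2 in 1 area, and Cxcl9. Just inside were Cxcl14, with 5 areas, and Cxcl3, with 7.

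Cxcl9, an interferon-induced ligand of the T cell receptor Cxcr3, was the other member called, in CuNZ@Gel against Sham. Its areas ran from 0.721 to 3.07 in Sham, from 2.04 to 6.81 in Gel and from 1.75 to 4.91 in 7 CuNZ@Gel areas, and 1 area stood at 165. The difference was 1.18 (SE 0.32, limma adjusted p = 0.0351), and it rests on that area, Segment 2 of CuNZ@Gel specimen 2 region 1. Without it the difference was 0.52 (adjusted p = 0.555), and the call was lost under 16 of 25 alternatives, with adjusted p up to 0.808. The same area had the highest background of all (21.6) and held 8 of the 9 targets that were above background in 1 area only and more than 5 times over it there, Cxcl9 among them. Cxcl10 and Cxcl11, its neighbours and fellow interferon-induced genes, were above background in no area.

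**Figure D4:**
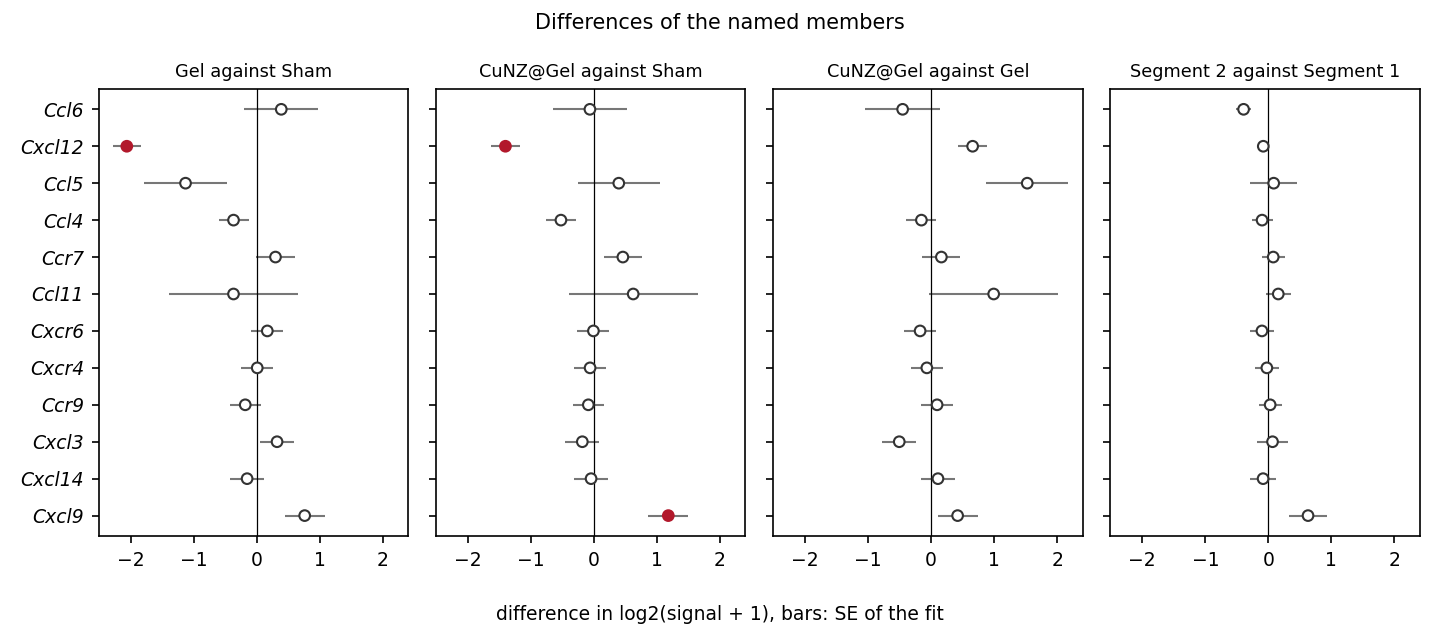
Differences in log2(signal + 1) of 11 members above background and Cxcl9 in 4 comparisons, with bars of 1 SE of the limma fit. Filled red points have an adjusted p under 0.05: Cxcl12 at -2.06 and -1.40 against Sham, and Cxcl9 at 1.18.

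CuNZ@Gel against Gel compares the 2 hydrogels. The labels do not say whether they are alike apart from the nanozyme. No member of 57 was called by limma, where 0.943% of all targets and 3.24% of those above background were. At an unadjusted p under 0.05 there were 7 members, Cxcl12 among them, against 6.7% of all targets and 13.7% of those above background. DESeq2 called 0 members and edgeR 2, Ccl5 and Cxcl9. The median over the 12 members above background was 0.10, against 0.00 for all targets above background.

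Segment 2 was compared with Segment 1 within specimens. Of 57 members 0 were called by limma, with 7 at an unadjusted p under 0.05, where 2.53% of all targets and 7.45% of those above background were called and 16.2% and 31.6% had such an unadjusted p. Of those 7 members Ccl6 alone was above background. The value of 1 count, the lowest possible, had a median of 0.65 units in Segment 1 areas and 2.04 in Segment 2 areas. Low targets can therefore read higher in Segment 2 without more RNA. By other tools, edgeR called 1 and DESeq2 0. Ccl6 came closest: it was 58.9 ± 24.7 in Segment 1 and 42.6 ± 11.9 in Segment 2 (SD over 6 specimens), a difference of -0.39 (SE 0.12, limma adjusted p = 0.0516). Segment 2 was the higher in 2 of 12 regions, both of them in Sham specimen 1. Under edgeR the call was made (-0.46, adjusted p = 0.0150). Of 15 macrophage markers 4, Cd68, Csf1r, Lyz2 and Mrc1, were called lower in Segment 2. Summed signal of the 15 was 892 to 1423 in Segment 1 areas and 625.5 to 1421 in Segment 2 areas. Aif1, Cd163, Fcgr3 and Ctss, which were not above background, had higher means in Segment 2. Since 1 count is worth more there, these are not read as rises. The median difference was -0.20 over the 15 and -0.32 over the 8 above background. Of all targets above background, 413 were called lower in Segment 2 and 1 higher. Segment 2 also held fewer recovered counts in 11 of 12 regions. The part of the macrophage markers or of total counts in the Ccl6 difference was not tested. The median difference was 0.00 over the 12 members above background and -0.20 over all targets above background.

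The treatment by segment interaction asks whether a treatment difference depends on the segment. It called 0 of 57 members, with 3 at an unadjusted p under 0.05, where 0.0507% of all targets and 0.18% of those above background were called and 5.65% and 8.57% had such an unadjusted p. edgeR called 1, Cxcl9, and DESeq2 0. Cxcl12 had the smallest p of the members, unadjusted 0.00771 in limma's F test (adjusted p = 0.730). In Sham, Cxcl12 was higher in Segment 2 in 4 of 4 regions, by a mean of 0.25 log2 units, and in Gel it was lower in 4 of 4, by a mean difference of -0.40. Of the 5554 targets above background, 64 (1.15%) had opposite signs in all Sham and all Gel regions, and Cxcl12 was the only such member among the 12. In CuNZ@Gel, Segment 2 was the higher in 1 of 4 regions. In Segment 2 areas alone the Cxcl12 differences from Sham were -2.39 in Gel and -1.58 in CuNZ@Gel, and in Segment 1 areas alone -1.74 and -1.23.

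Ccl5 had no single order of the segments: Segment 2 was the higher in 3, 1 and 3 of 4 regions in Sham, Gel and CuNZ@Gel.

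**Figure D5:**
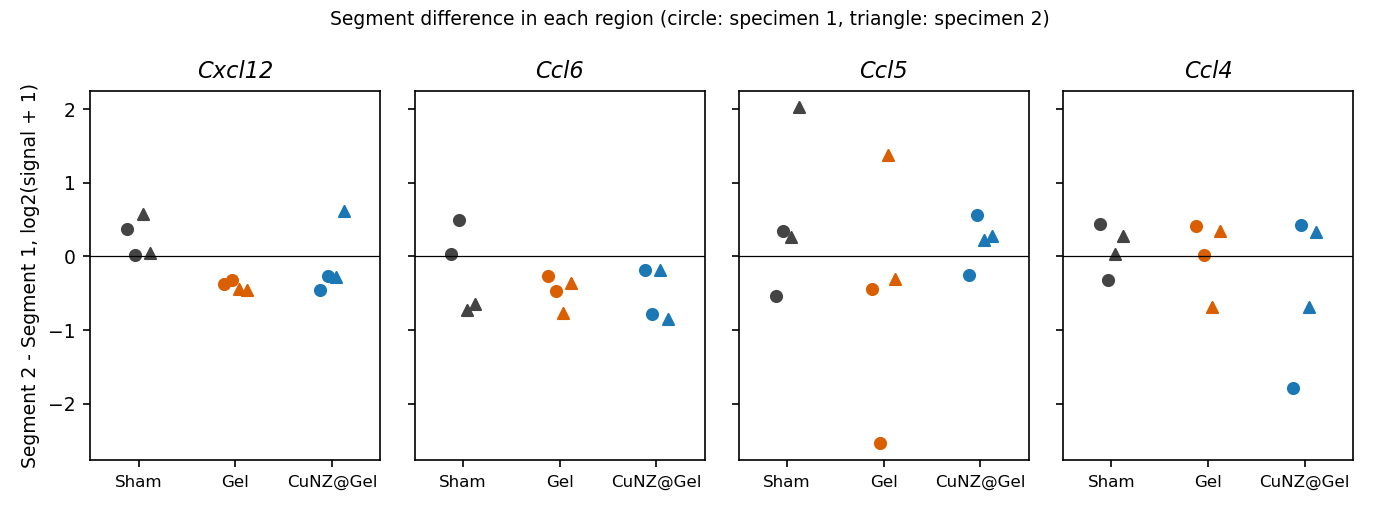
Segment 2 minus Segment 1, in log2(signal + 1), for Cxcl12, Ccl6, Ccl5 and Ccl4 in each of 12 regions, by treatment; circles are specimen 1 and triangles specimen 2. Cxcl12 lies above 0 in 4 of 4 Sham regions and below in 4 of 4 Gel regions, and Ccl6 lies below 0 in 10 of 12 regions.

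Beyond the receptors, the signalling list held 24 measured genes, of which 12 were above background. Rgs2, which ends G protein signals, fell in Gel against Sham (34.3 ± 6.70 to 20.02 ± 0.24, log2 -0.72, limma adjusted p = 0.0348), and no gene of the list was called in the other treatment comparisons. In Segment 2, 3 fell: the G protein subunits Gnai2 (-0.35, adjusted p = 2.79e-04) and Gnb1 (-0.34, adjusted p = 0.00602), and the receptor kinase Grk6 (-0.43, adjusted p = 0.0332). Medians over the list's genes above background were -0.37, -0.23 and 0.06 in the treatment comparisons and -0.18 between segments. Over all targets above background they were -0.15, -0.15, -0.003 and -0.20 in that order. Of those targets 7.85% were called in Gel against Sham. Between segments 7.45% were called, 413 lower in Segment 2 and 1 higher. The fall of the 3 genes is thus not particular to this list.

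Of 6 chemokine-related genes whose symbols the rule does not take, 1 was called: Rarres2, which encodes the macrophage attractant chemerin, fell in Gel against Sham (229 ± 24.7 to 146 ± 3.70, log2 -0.63, limma adjusted p = 0.0279). In CuNZ@Gel, Rarres2 was at 147 ± 0.05, and its difference from Sham was of like size without a call (-0.62, adjusted p = 0.0516). Of 15 inducers of chemokine genes, 1 was called: Nfkbia, the inhibitor of NF-kB that NF-kB itself induces, rose in CuNZ@Gel against Sham (18.8 ± 1.21 to 32.9 ± 9.46, log2 0.75, adjusted p = 0.0431). Its value in Gel was 29.0 ± 1.88. No gene of either list was called in CuNZ@Gel against Gel or between segments. Of all targets tested, 2.42% were called in Gel against Sham and 1.31% in CuNZ@Gel against Sham. Among targets above background these shares were 7.85% and 4.34%. A single call is not read as particular to either list.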

How the data were processed

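GeoMx probe tags were measured in 24 areas of 6 specimens. The authors deposited 1 scaled signal value per target and area. What software counted the tags and how values were scaled was not stated in the labels used here. Every area's 75th percentile lay between 12.2 and 12.3. Whole counts were recovered as multiples of the lowest value (99.985% to 100% of values whole within 0.01 of a count). Targets follow mouse naming: 53 members equal a GRCr8 symbol, 1 a synonym (Cxcl5), and 5 neither. Levels of different targets depend on their probes and were not compared.

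Values were taken as log2(signal + 1), so changes of low targets are understated. Targets above the negative probe in 4 or more areas were kept (19728, with 57 of 59 members; Ccl26 and Ccr4 dropped out). For treatments, log2 values were averaged over the 4 areas per specimen, and limma 3.58.1 (R 4.3.3) was fitted to the 6 specimen means (eBayes with trend and robust; 133 prior against 3 residual degrees of freedom). For segments, means per specimen and segment were fitted with specimen blocks, and the interaction was an F test. P-values were adjusted by Benjamini-Hochberg across the whole panel kept, and under 0.05 counted as called. Alternatives were scaling, filter, pseudocount, averaging, edgeR 4.0.16, DESeq2 1.42.0, thinning, segment and omission of specimens or areas. Omissions of single areas and of 1 region were added after the data were seen. Members, lists and tests were chosen with earlier results of these data known. Named genes are all members above background or called, and up to 4 called genes per list and comparison with the smallest adjusted p; not every one is reported, and 1 member above background is left out of the text and figures, though counts and medians include it.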

Additional observations from a re-analysis of the deposited data

Results flagged for a closer look

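The 8 areas of each treatment were checked for a sample far from the others, for the 12 members above background and Cxcl9. Of the 39 groups of areas 3 held one. The rule marks about 1 group in 20 when the 8 values are independent and normally distributed. The 8 areas of a treatment came from 2 specimens and are not independent. That rate therefore does not apply to these groups, and the count of 3 is not compared with it. Cxcl9 stood at 165 in Segment 2 of CuNZ@Gel specimen 2 region 1, where the next area of the treatment was at 4.91. Ccr7 stood at 78.3 in Segment 1 of the same region, and the next area was at 19.6. Ccr9 stood at 24.5 in Segment 2 of Sham specimen 2 region 1, and the next Sham area was at 15.9.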

How the results depend on the processing

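In Gel against Sham 1 member was called, and 0 under quantile normalization, median scaling, linear averaging, DESeq2 and Segment 1 areas alone. It was 2 under thinning, edgeR and without region 2 of Gel specimen 2 (Ccl5 was added in each), and 1 to 3 when a specimen was left out. In CuNZ@Gel against Sham 2 were called. This became 1 with a pseudocount of 5, only targets above background, median scaling, background subtraction, limma without trend and robust, thinning, areas as samples, Segment 2 areas alone, without Segment 2 of CuNZ@Gel specimen 2 region 1 and without region 2 of Gel specimen 2. It became 0 under quantile normalization, linear averaging, DESeq2, Segment 1 areas alone and without the shallowest area, and 1 to 2 when a specimen was left out. In CuNZ@Gel against Gel 0 became 1 under thinning, 2 under edgeR and without region 2 of Gel specimen 2, and 0 to 4 when a specimen was left out (4 without Gel specimen 2, Ccl5, Ccl11 and Cxcl12 among them). Between segments 0 became 1 with a pseudocount of 5, no filter, only targets above background, edgeR and without region 2 of Gel specimen 2 (Ccl6 in each), and 0 to 1 when a specimen was left out. The interaction went from 0 to 1 under edgeR and 0 to 1 when a specimen was left out. A lone specimen was assumed to vary like the others. The causes were not tested. The count above background went from 12 to 6 when 12 or more areas were asked for and to 24 with a limit of 2 times the negative probe. It was 14 with the 95th percentile. Under median scaling the median of targets above background in Gel against Sham moved from -0.15 to 0.01, and the split of all calls from 122 higher and 356 lower to 212 and 244. Against Sham, CuNZ@Gel moved from 64 higher and 195 lower to 101 and 99.

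Same-numbered specimens did not deviate together (correlations -0.03, 0.00 and -0.03 over 5554 targets). With 2 specimens per treatment, this does not settle whether the numbers pair specimens across treatments. With the replicate block 1, 2 and 0 members were called in the 3 treatment comparisons. Depth limits Segment 2, where the median area had 28.5% of its targets at 1 count, so low members are least resolved there.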
